A study of Mus musculus with 9 samples.

Results

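Axon injury and regeneration genes are a set of 10 genes, Atf3, Ecel1, Sprr1a, Gal, Gap43, Sox11, Gadd45a, Stmn2, Klf6 and Map3k12, that are used as reporters of damage to the long processes of neurons. They were chosen by name, all 10 were found among the 48587 gene names of the count table, and all 10 passed the filter for low counts in every comparison. RNA was sequenced from retinas of C57BL/6J mice 12 weeks old, and each of the 9 samples was a pool of 6 retinas, so n counts pools and not mice. In the RVO group (n = 3), all veins of one eye were occluded by laser (50 mW) after injection of the photosensitizer eosin Y (200 mg/kg). In the control group (n = 3), the fellow eyes received an equal number of laser burns between the large vessels, so both groups had the laser, the dye and the anesthesia, and both were taken at d2. The untreated group (n = 3) had no laser treatment. Because RVO and control eyes came from the same mice, the control group is a control for the laser lesion but not an eye of an uninjured animal.

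When the axon of a neuron is cut or compressed, stress kinases carry a signal along the axon to the cell body, where transcription factors switch on a program that can lead either to regrowth or to death of the cell. In the retina only ganglion cells send an axon out of the eye, through the optic nerve, and their response to damage of that nerve involves several of the genes described here. Map3k12 encodes DLK, a kinase at the start of this signal. Atf3, Klf6 and Sox11 encode transcription factors, and Gadd45a encodes a protein of the response to DNA damage and stress. Ecel1 encodes a peptidase-like membrane protein of neurons, Sprr1a a small proline-rich protein first known from surface epithelia, and Gal the neuropeptide galanin. Gap43 and Stmn2 encode proteins of growth cones, the growing tips of axons, and Stmn2 binds tubulin.

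Total counts ranged from 21022997 to 28993921 in RVO samples, from 18897218 to 23419497 in control samples and from 12377572 to 15245869 in untreated samples. Levels are given as CPM, counts per 1000000 counts of a sample after scaling by TMM factors, and differences as log2 fold changes with their standard error (SE). The samples had the markers of retina, with a sum of 10 rod markers between 47783 and 91767 CPM. RVO replicate 2 stood apart from the other RVO samples in markers of retinal ganglion cells, which summed to 957 CPM against 512 and 611 CPM, and in lens markers, which summed to 6830 CPM against 216 and 598 CPM. Lens markers also varied in control samples, from 249 to 3452 CPM with the highest value in replicate 1, and were between 4.50 and 31.1 CPM in untreated samples. Results that depend on RVO replicate 2 are therefore also given without it.

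Of the 10 genes, 7 rose and 2 fell in RVO against untreated eyes, and Gap43 did not pass the threshold (quasi-likelihood test of edgeR, adjusted p under 0.01 after Benjamini-Hochberg correction). In 9 of the 10 genes the groups did not overlap, 7 being higher and 2 lower in all RVO samples, which was so for 35.9% and 37.5% of all tested genes. The RVO samples differed widely from the untreated ones, and 52.1% of 16380 tested genes were differentially expressed, 27.4% being higher and 24.6% lower. In control against untreated eyes 6 of the 10 genes rose, 2 fell, and Sox11 and Gadd45a did not pass, where 52.4% of 16066 tested genes were differentially expressed (27.2% higher, 25.2% lower). Control and untreated samples did not overlap for any of the 10 genes, with 7 higher and 3 lower, beside 34.6% and 35.4% of all tested genes. Between RVO and control eyes Atf3, Ecel1 and Gadd45a rose and none of the 10 fell, and 3.34% of 16874 tested genes were differentially expressed (2.70% higher, 0.634% lower). At an adjusted p under 0.05, the difference between these groups was positive for 6 and negative for 2 of the 10, where 34.6% of all tested genes were called (17.5% higher, 17.1% lower). RVO and control samples did not overlap for 7 genes that were higher and 2 that were lower, beside 26.7% and 25.8% of all tested genes. Without RVO replicate 2, numbers of 6 higher and 2 lower were reached at the threshold of 0.01, in a fit that called 6257 of 17199 tested genes. The median log2 fold change of the 10 genes was 1.12 in RVO against untreated, 0.35 in control against untreated and 0.65 in RVO against control eyes, beside medians over all tested genes of 0.01, 0.01 and 0.02. RVO and control eyes were compared with the same untreated samples, so these comparisons are not independent of each other.

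**Figure D1:**
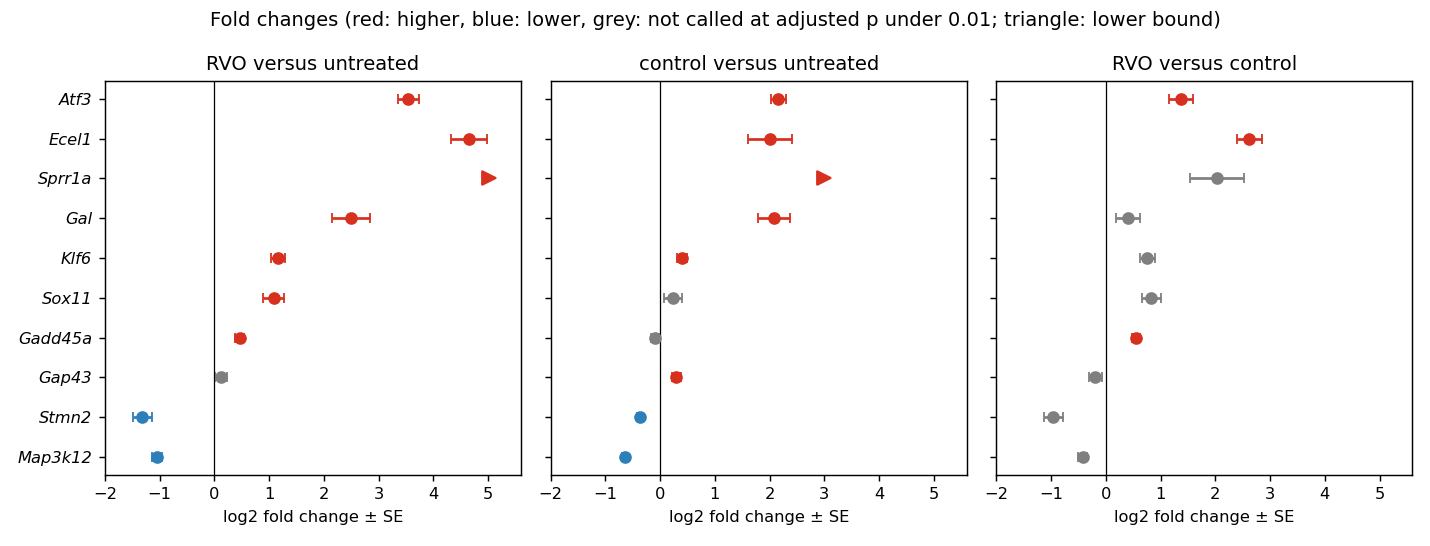
Log2 fold changes of the 10 genes (x axis, points with standard error) in the 3 comparisons. Red and blue points passed an adjusted p under 0.01 and grey points did not, and triangles give the lower bound for Sprr1a, which had 0 counts in all untreated samples.

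The call of genes between RVO and control eyes depended on single samples. RVO and control samples were fitted as unpaired, because the labels do not say which pools came from the same mice. A fit with equal replicate numbers as pairs, in which 0 of the 10 genes were called, is given at the end. Of the 10 genes, 3 were called with all samples, 8 when RVO replicate 2 was left out, 1 (Ecel1) when RVO replicate 1 was, and 0 when RVO replicate 3 or any of the control replicates was. In the same fits the number of all genes called moved from 563 to 6257, 29 and 0 on removal of RVO replicates 2, 1 and 3, and to 1, 0 and 0 on removal of control replicates 1, 2 and 3, and 6100 to 9839 genes had an unadjusted p under 0.05 in edgeR. DESeq2's Wald test called 8 of the 10 genes at the same threshold, and 4038 of all 29742 genes in that fit. The direction of all 10 differences was the same in each of these fits.

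Atf3 (chromosome 1 of GRCm38, 191170296 to 191218039, minus strand, 5 exon blocks) encodes a transcription factor that is low in resting neurons and induced by axon injury. Its level was 12.1, 11.3 and 11.6 CPM in the untreated samples, 47.1, 64.3 and 43.1 CPM in the control samples and 155, 96.2 and 147 CPM in the RVO samples, from counts of 133 to 4876. The 3 groups did not overlap, and RVO replicate 2 was the lowest of the RVO samples. RVO eyes exceeded untreated eyes 11.7-fold (log2 fold change 3.54, SE 0.19, adjusted p = 6.47e-06 by edgeR with Benjamini-Hochberg), which placed it at rank 300 of 16380 genes by fold change. In control against untreated eyes Atf3 was 4.47-fold higher (log2 fold change 2.16, SE 0.14, adjusted p = 1.76e-07 by edgeR with Benjamini-Hochberg). The step from control to RVO eyes was 2.59-fold (log2 fold change 1.37, SE 0.22, adjusted p = 0.00989 by edgeR with Benjamini-Hochberg). The last value is close to the threshold and was 0.0106 with DESeq2's size factors in edgeR and 2.85e-05 without RVO replicate 2 (edgeR, Benjamini-Hochberg).

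Klf6 (chromosome 13, 5861482 to 5870394, plus strand) encodes a zinc finger factor that promotes growth of axons from ganglion cells. It was expressed at 33.2, 30.6 and 33.6 CPM in untreated, 41.3, 46.5 and 39.0 CPM in control and 70.8, 59.2 and 83.6 CPM in RVO samples. The groups again did not overlap and had the same order as for Atf3, over a much smaller range. The rise was 2.24-fold in RVO (log2 fold change 1.16, SE 0.13, adjusted p = 0.00014 by edgeR with Benjamini-Hochberg) and 1.32-fold in control eyes (0.40 on the log2 scale, SE 0.08, adjusted p = 0.0011 by edgeR with Benjamini-Hochberg). The second value was no longer called without untreated replicate 2 (adjusted p = 0.0101 by edgeR with Benjamini-Hochberg). Against control eyes, Klf6 was 1.69-fold higher in RVO, with an adjusted p of 0.0116 (edgeR, Benjamini-Hochberg), and 9.33e-05 without RVO replicate 2.

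Sox11 (chromosome 12, 27334264 to 27342574, minus strand, 1 exon) encodes a factor of developing neurons. Its level was low, with 3.09, 2.81 and 2.86 CPM in untreated samples, 3.62, 3.28 and 3.26 CPM in control samples and 5.00, 6.54 and 6.60 CPM in RVO samples, from 34 to 157 counts. Only the RVO samples were far from the others, with the lowest of them at 5.00 and the highest control sample at 3.62 CPM. The log2 fold change was 1.08 in RVO (SE 0.19, 2.11-fold, adjusted p = 0.00118 by edgeR with Benjamini-Hochberg) and 0.24 in control eyes (SE 0.17, adjusted p = 0.242 by edgeR with Benjamini-Hochberg). The difference between RVO and control eyes was 0.83 on the log2 scale (SE 0.17, 1.78-fold, adjusted p = 0.0133 by edgeR with Benjamini-Hochberg), and its adjusted p was 0.00611 without RVO replicate 2.

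Gadd45a (chromosome 6, 67035096 to 67037457, minus strand) was the other gene with no called difference between control and untreated eyes. The untreated samples had 32.5, 29.8 and 29.8 CPM, the control samples 28.2, 28.7 and 27.9 CPM and the RVO samples 42.2, 38.3 and 43.2 CPM. All RVO samples lay above all others. Gadd45a exceeded its untreated level 1.37-fold in RVO eyes (log2 fold change 0.46, SE 0.09, adjusted p = 0.002 by edgeR with Benjamini-Hochberg), and the call was lost without untreated replicate 2 (adjusted p = 0.015) or 3 (adjusted p = 0.0117). It was 1.46-fold higher than in control eyes (log2 fold change 0.55, SE 0.08, adjusted p = 0.00872 by edgeR with Benjamini-Hochberg). The value of control against untreated eyes was -0.10 (SE 0.07, adjusted p = 0.266 by edgeR with Benjamini-Hochberg), and scaling by library size alone turned it to 0.08. That scaling shifted the median of all genes by 0.17 in the same comparison. Gadd45a shares 337 exonic bases with E230016M11Rik on the opposite strand, whose level was 13.6 ± 0.837 CPM in untreated and 8.79 ± 0.344 CPM in RVO eyes (SD, n = 3). The library kit keeps the strand, but whether the counting used it is not stated.

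Map3k12 (chromosome 15, 102497646 to 102517064, minus strand) encodes the kinase upstream of these factors, and its transcript moved the other way. It fell from 136, 126 and 126 CPM in untreated to 85.7, 76.8 and 83.1 CPM in control and 58.0, 67.5 and 58.0 CPM in RVO samples. No sample of one group reached another group. The log2 fold change was -1.05 in RVO (SE 0.08, adjusted p = 3.33e-05 by edgeR with Benjamini-Hochberg) and -0.64 in control eyes (SE 0.06, adjusted p = 1.13e-06 by edgeR with Benjamini-Hochberg). Between RVO and control eyes it was -0.42 (SE 0.08, adjusted p = 0.0132 by edgeR with Benjamini-Hochberg; 0.000211 without RVO replicate 2). Map3k12 shares 1573 exonic bases with Pcbp2 on the opposite strand, and Pcbp2 was at 809 ± 6.45 CPM in untreated, 599 ± 27.3 CPM in control and 526 ± 5.78 CPM in RVO eyes (SD, n = 3). The log2 fold changes of Pcbp2 were -0.59 in RVO and -0.42 in control eyes, smaller than those of Map3k12, and the part of shared reads in the result was not tested.

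**Figure D2:**
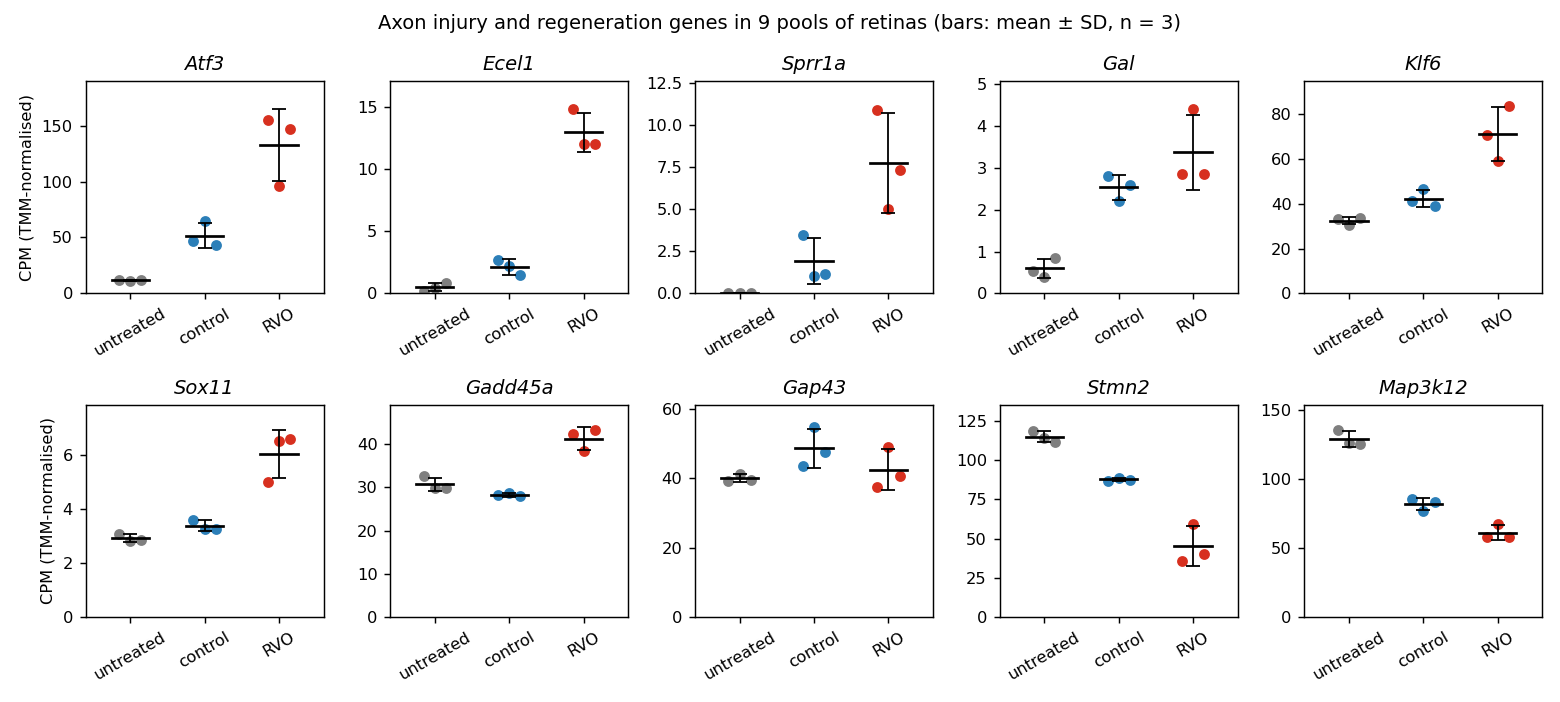
Levels of the 10 genes in CPM (y axis, from 0, a separate scale for each gene) in untreated, control and RVO samples. Each point is a pool of 6 retinas and bars give the mean and SD of 3 pools, and the groups overlap for Gap43 only.

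Ecel1, Sprr1a and Gal were almost silent in untreated retinas. Ecel1 (chromosome 1, 87147655 to 87156521, minus strand, 20 exon blocks) had 2, 6 and 12 counts in the untreated samples, or 0.182, 0.469 and 0.857 CPM. It reached 2.71, 2.17 and 1.46 CPM in control samples and 14.8, 12.0 and 12.0 CPM in RVO samples. All RVO samples were thus far above all control samples, and RVO replicates 2 and 3 had the same level to 3 digits. Ecel1 exceeded its untreated level 24.96-fold in RVO eyes (log2 fold change 4.64, SE 0.33, adjusted p = 2e-05 by edgeR with Benjamini-Hochberg) and 4.02-fold after control laser treatment (log2 fold change 2.01, SE 0.40, adjusted p = 0.000783 by edgeR with Benjamini-Hochberg). Of the 10 genes it had the largest difference between RVO and control eyes, 6.14-fold (log2 fold change 2.62, SE 0.23, adjusted p = 0.00459 by edgeR with Benjamini-Hochberg), at rank 24 of 16874 genes. The study lists Ecel1 among its most increased genes in that comparison, which was selected on these samples, so the rank is a description.

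Sprr1a (chromosome 3, 92483952 to 92485895, minus strand, 2 exon blocks) had 0 counts in all 3 untreated samples. It had 77, 21 and 28 counts in control samples (3.48, 1.06 and 1.17 CPM) and 343, 118 and 167 counts in RVO samples (10.9, 5.01 and 7.34 CPM). The groups did not overlap, and the spread within both laser-treated groups was the widest of the 10 genes, with a coefficient of variation of 71.8% in control and 38.4% in RVO samples. With a floor of 3 counts per untreated library, RVO eyes had a level of Sprr1a at least 32.3-fold higher, and control eyes one at least 7.93-fold higher, and both differences were called (edgeR, Benjamini-Hochberg adjusted p = 0.000172 and 0.00034). These bounds cover counting error only. Between RVO and control eyes it was 4.08-fold higher (log2 fold change 2.03, SE 0.48, adjusted p = 0.0195 by edgeR with Benjamini-Hochberg), which does not pass 0.01, and the adjusted p was 0.00143 without RVO replicate 2. The study lists Sprr1a among the genes most increased against untreated eyes, a list made from these samples.

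As Sprr1a is also made by surface epithelia, markers of cornea and surface epithelium were examined. Of 10 such genes 7 were tested in RVO against untreated eyes, of which 2 rose (Krt14 and Krt6a) and 1 fell (Trp63), and without RVO replicate 2 there were 4 that rose and 1 that fell. Krt14 had 0.273 ± 0.115 CPM in untreated, 0.958 ± 0.401 CPM in control and 3.21 ± 1.99 CPM in RVO eyes (SD, n = 3), and Krt6a 0.823 ± 0.312, 1.55 ± 0.298 and 3.13 ± 1.03 CPM. Mean values of Krt5 (1.67 and 5.89 CPM) and Aldh3a1 (1.94 and 13.7 CPM) were also higher in RVO than in untreated samples but did not pass. The summed level of the 10 genes was 9.72 to 12.3 CPM in untreated, 9.40 to 14.6 CPM in control and 23.0 to 48.8 CPM in RVO samples. The highest sum was in RVO replicate 2, in which Sprr1a was lowest among RVO samples. Ivl, which encodes the cornified envelope protein involucrin, was at 0 CPM in all RVO and control samples, and the paralog Sprr1b was at 0 CPM in all samples but RVO replicate 3 (0.044 CPM). Markers of Schwann cells and peripheral nerve, another tissue in which injury genes are active, rose in 1 and fell in 2 of 7 tested genes, and summed to 88.4 to 99.3 CPM in untreated and 63.6 to 93.1 CPM in RVO samples. Of the resident glial cells, 1 of 10 Mueller glia markers rose and 4 fell, and 0 of 8 microglia markers rose and 5 fell, in RVO against untreated eyes, and of 10 rod markers 1 rose and 9 fell. Without RVO replicate 2, 9 Mueller glia markers and all 8 microglia markers fell, in a fit that called 10491 of 16300 tested genes. With all samples, 27.4% of all tested genes were higher and 24.6% lower in RVO against untreated eyes. Lens markers rose in 7 of 9 tested genes in RVO and in 10 of 10 in control eyes against untreated eyes. The sample with the highest lens sum was RVO replicate 2 among RVO samples and replicate 1 among control samples, and Sprr1a was lowest in the former and highest in the latter. The part of epithelial or lens tissue in the level of Sprr1a was not tested.

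The sequence upstream of Sprr1a is shown because it holds 2 copies of the AP-1 motif, the letters bound by dimers of the Jun and Fos families. That upstream of 1 start of Atf3 is shown because it has none although Atf3 had the largest rise in CPM of the 10 genes. The motifs TGANTCA (AP-1), TGACGTCA (CRE), TTCNNNGAA (STAT) and CACGTG (E-box) were searched on both strands, in windows of 300 bases (250 before to 50 after the start) from RefSeq on GRCm38.p6. Of the 10 genes 8 were matched, not Gap43 and Stmn2. The Atf3 window lies within the span of the gene given above, so the sequence before its 5′ end at 191218039 was not searched. The 250 bases before the start are printed 5′ to 3′ on the minus strand, Sprr1a from chr3:92485882-92486131 and Atf3 from chr1:191183334-191183583, with AP-1 matches in capitals.
Sprr1a: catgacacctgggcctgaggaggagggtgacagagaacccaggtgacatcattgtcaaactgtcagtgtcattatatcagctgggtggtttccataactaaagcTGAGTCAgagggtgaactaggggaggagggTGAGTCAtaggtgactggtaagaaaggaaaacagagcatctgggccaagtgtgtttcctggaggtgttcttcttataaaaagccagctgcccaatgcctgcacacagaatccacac
Atf3: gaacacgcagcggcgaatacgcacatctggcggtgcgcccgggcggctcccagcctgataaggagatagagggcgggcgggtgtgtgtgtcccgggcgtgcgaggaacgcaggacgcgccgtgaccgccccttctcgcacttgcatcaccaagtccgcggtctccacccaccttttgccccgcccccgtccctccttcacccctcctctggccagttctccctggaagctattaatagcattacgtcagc
The AP-1 matches of Sprr1a begin 146 and 116 bases before the start. AP-1 letters were present in 1 of the 8 genes and in 7.81% of 32851 promoter windows. These windows leave out 1 chromosome, which holds none of the 10 genes, and a gene can have more than 1 window. E-box letters were found in Klf6 and in the second window of Map3k12, 2 of 8 genes, and in 7.15% of these windows. CRE letters (1.79% of these windows) and STAT letters (8.30%) were in 0 of the 8, and a match or its absence describes letters only.

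Gal (chromosome 19, 3409915 to 3414544, minus strand) rose in both laser-treated groups. It had 6, 5 and 12 counts in untreated samples (0.545, 0.391 and 0.857 CPM), and reached 2.80, 2.22 and 2.59 CPM in control and 2.87, 4.42 and 2.86 CPM in RVO samples. Untreated samples lay below all others, and RVO replicates 1 and 3 were little above control replicate 1. Its rise was 5.64-fold in RVO (log2 fold change 2.50, SE 0.34, adjusted p = 0.00038 by edgeR with Benjamini-Hochberg) and 4.21-fold in control samples (log2 fold change 2.07, SE 0.29, adjusted p = 4.81e-05 by edgeR with Benjamini-Hochberg). The difference between RVO and control eyes was 0.41 on the log2 scale (SE 0.22, adjusted p = 0.192 by edgeR with Benjamini-Hochberg), and 0.15 without RVO replicate 2, where Gal was highest.

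Of the growth cone genes, Gap43 was higher in control but not in RVO eyes by the threshold, and Stmn2 was lower in both. Gap43 (chromosome 16, 42248442 to 42340651, minus strand) had 39.2, 41.3 and 39.6 CPM in untreated, 43.6, 54.8 and 47.7 CPM in control and 37.6, 49.1 and 40.8 CPM in RVO samples. The RVO samples overlapped with both other groups. The log2 fold change of Gap43 was 0.12 in RVO against untreated (SE 0.11, adjusted p = 0.361 by edgeR with Benjamini-Hochberg) and -0.19 in RVO against control eyes (SE 0.12, adjusted p = 0.249 by edgeR with Benjamini-Hochberg). Without RVO replicate 2 it was 0.02 against untreated eyes (adjusted p = 0.868 by edgeR with Benjamini-Hochberg). Against control eyes it was then -0.33 (adjusted p = 0.0225 by edgeR with Benjamini-Hochberg), which does not pass 0.01. In control against untreated eyes Gap43 was 1.23-fold higher (log2 fold change 0.30, SE 0.09, adjusted p = 0.00844 by edgeR with Benjamini-Hochberg). That call was lost when control replicate 2 or 3 or any of the untreated replicates was left out (edgeR, Benjamini-Hochberg adjusted p from 0.013 to 0.0352).

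Stmn2 (chromosome 3, 8509360 to 8561606, plus strand) fell in both laser-treated groups. Its level was 119, 114 and 112 CPM in untreated samples, 86.9, 88.9 and 87.6 CPM in control samples and 35.7, 59.5 and 40.2 CPM in RVO samples. The control samples were close together, whereas RVO replicate 2 lay between the control and the other RVO samples. The log2 fold change was -1.32 in RVO (SE 0.17, adjusted p = 0.000294 by edgeR with Benjamini-Hochberg) and -0.37 in control eyes (SE 0.05, adjusted p = 3.46e-05 by edgeR with Benjamini-Hochberg). Against control eyes it was -0.96 in RVO (SE 0.17, adjusted p = 0.0118 by edgeR with Benjamini-Hochberg), and -1.23 without RVO replicate 2 (adjusted p = 3.9e-06).

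Markers of retinal ganglion cells, the neurons whose axons form the optic nerve, fell with Stmn2. Of 16 markers 14 fell and 0 rose in RVO against untreated eyes, with a median of -1.40 on the log2 scale. In control eyes 10 fell and 1 (Tubb3) rose, with a median of -0.42. Among all tested genes 24.6% were lower in RVO and 25.2% in control eyes. In RVO against control eyes 2 of the 16 fell, Pou4f3 (log2 fold change -1.65) and Nefh (-0.47), and all 16 fell without RVO replicate 2. In that comparison 0.634% of all tested genes were lower, and 6257 of 17199 were called without that replicate. In these bulk samples, fewer cells of a type and less RNA per cell cannot be told apart. The summed level of the 16 markers was 1674 to 1760 CPM in untreated, 1371 to 1444 CPM in control and 512, 957 and 611 CPM in RVO samples. Amacrine cell markers, of neurons without an axon in the optic nerve, fell as well, 9 of 10 in RVO (median log2 fold change -1.21) and 6 of 10 in control eyes, where 1 rose (median -0.29). Transcripts of both kinds of neurons thus fell in the same samples.

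Stmn2, Gap43 and Atf3 were set against this sum of ganglion cell markers, a measure and genes chosen after the values were seen. Stmn2 was 6.62% to 6.75% of the marker sum in untreated, 6.04% to 6.48% in control and 6.22% to 6.97% in RVO samples, so all 9 samples lay between 6.04% and 6.97% while its CPM value fell. Gap43, whose CPM values overlapped, was 2.23% to 2.39% of the sum in untreated, 3.02% to 3.99% in control and 5.13% to 7.35% in RVO samples. For Atf3 these shares were 0.651% to 0.696%, 2.99% to 4.69% and 10.1% to 30.4%. The marker sum itself separated the 3 groups, so a gene with a nearly constant CPM value, such as Gap43, has to take a larger share of it where the markers are lower. The sum of the 10 amacrine cell markers fell with the ganglion cell sum. It was 2002 to 2080 CPM in untreated, 1650 to 1759 CPM in control and 636, 1194 and 716 CPM in RVO samples. A nearly steady share such as that of Stmn2 therefore cannot assign a transcript to ganglion rather than amacrine cells. Both parts of each ratio come from the same library, and whether the transcripts come from the same cells was not tested.

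**Figure D3:**
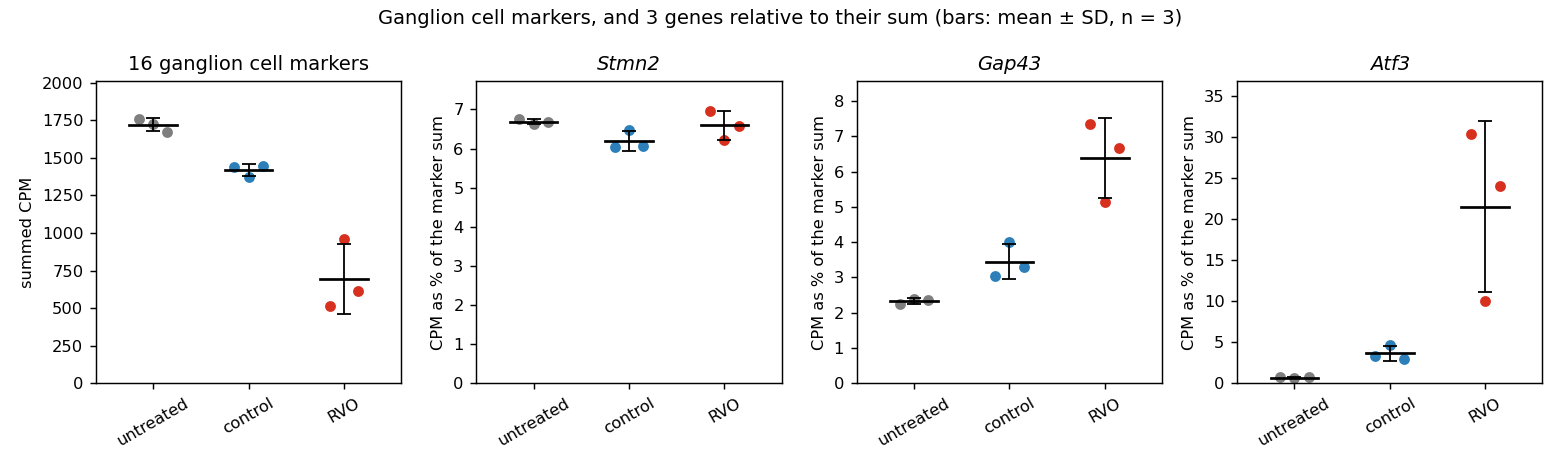
Summed CPM of 16 ganglion cell markers (left) and the CPM of Stmn2, Gap43 and Atf3 as a percentage of this sum, by group. Points are pools and bars the mean and SD of 3 pools; Stmn2 stays between 6.04% and 6.97% in all samples, whereas the shares of Gap43 and Atf3 are highest in RVO samples.

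Close relatives of the 10 genes were measured as well. Of 17 relatives and receptors 13 were tested, of which 4 rose and 5 fell in RVO against untreated eyes (median log2 fold change -0.42), and 4 rose and 3 fell in control eyes (median -0.01), where 52.1% and 52.4% of all tested genes were called. In RVO against control eyes 2 of 13 rose and 1 fell (median -0.24), beside 2.70% higher and 0.634% lower among all tested genes. Without RVO replicate 2, 3 rose and 5 fell, in a fit that called 6257 of 17199 tested genes. No test compared a gene with its relative. Gadd45b and Gadd45g, which encode stress proteins of the same family as Gadd45a, had lower levels in untreated eyes and rose in both laser-treated groups. Gadd45b went from 4.21 ± 0.063 CPM in untreated to 45.8 ± 7.50 CPM in control and 119 ± 26.7 CPM in RVO eyes (SD, n = 3), with log2 fold changes of 3.46 and 4.85. Gadd45g had log2 fold changes of 1.18 and 2.34, beside -0.10 and 0.46 for Gadd45a, and both relatives also rose in RVO against control eyes (1.38 and 1.15). Among the Sox factors of this group, Sox4 rose in control eyes (log2 fold change 1.16) as well as in RVO eyes (2.14), where Sox11 passed the threshold in RVO eyes only. Klf7 was 18.6 ± 1.75 CPM in untreated and 13.6 ± 1.07 CPM in RVO eyes (SD, n = 3), a log2 fold change of -0.42 that did not pass. Stmn1 fell with Stmn2 (log2 fold change -1.37 in control and -2.49 in RVO eyes), and Stmn3 fell in RVO eyes (-1.11), with a value of -0.01 in control eyes. Stmn4 did not share this fall, and all its RVO samples lay above all other samples. It had 31.7 ± 0.985 CPM in untreated, 29.7 ± 0.315 CPM in control and 36.3 ± 0.665 CPM in RVO eyes (SD, n = 3). Map3k13, which encodes the related kinase LZK, fell like Map3k12 (-0.50 in control and -0.98 in RVO eyes). Ece1 and Ece2, relatives of Ecel1, were lower in all RVO samples than in all control samples. Ece1 had 70.2 ± 2.92 CPM in control and 50.4 ± 4.44 CPM in RVO eyes (SD, n = 3). Ece2 had 44.6 ± 2.11 CPM in control and 25.6 ± 4.17 CPM in RVO eyes (SD, n = 3). The galanin receptor gene Galr1 had at most 0.126 CPM in any sample.

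**Figure D4:**
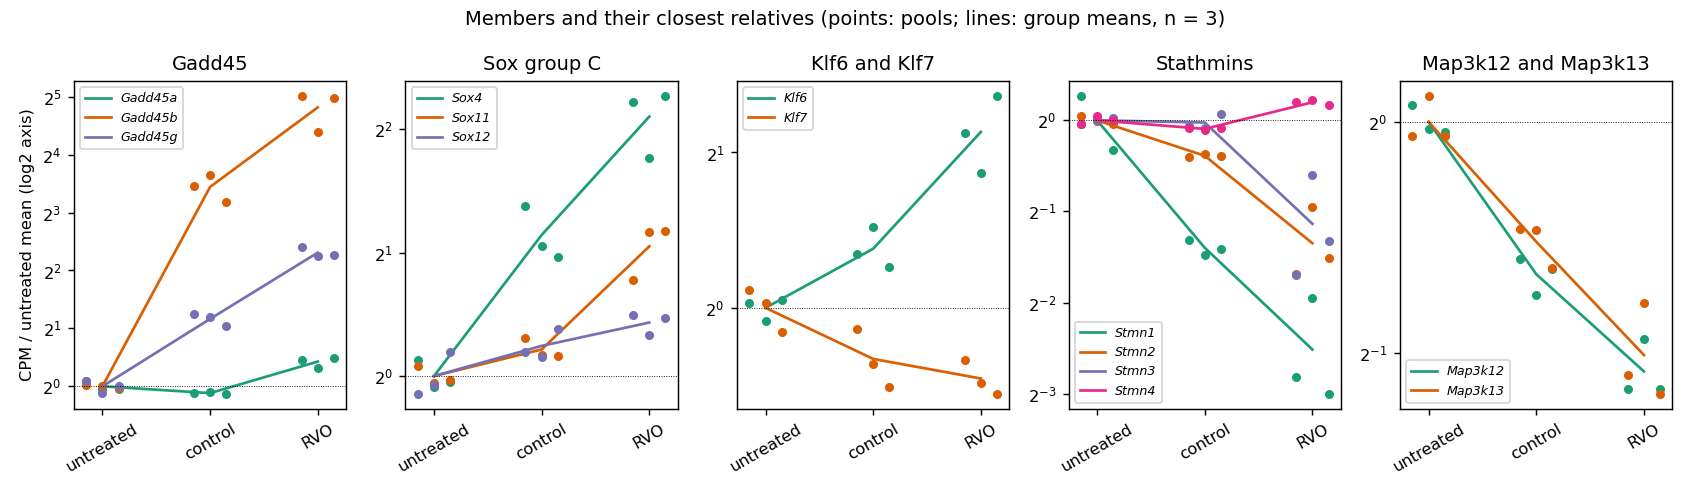
Levels of 5 of the genes and their relatives, each divided by its own untreated mean (y axis, log2 scale) in untreated, control and RVO samples, with points for pools and lines through group means. Gadd45b and Gadd45g lie above Gadd45a and Klf7 below Klf6 in both laser-treated groups.

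Genes of DLK and JNK signalling, which links axon damage to the cell body, moved in both directions. Of 18 genes 6 rose and 8 fell in RVO and 8 rose and 8 fell in control against untreated eyes (medians -0.07 and -0.10). Among all tested genes 27.4% were higher and 24.6% lower in RVO, and 27.2% and 25.2% in control eyes. The members that rose most were the target Jun, a transcription factor, and Bbc3, which encodes the death-promoting protein PUMA. Jun rose from 46.2 ± 4.28 CPM in untreated to 101 ± 9.70 CPM in control and 243 ± 42.0 CPM in RVO eyes (SD, n = 3), and Bbc3 from 1.44 ± 0.47 to 4.94 ± 0.496 and 11.3 ± 1.39 CPM. Trp53 followed with a log2 fold change of 1.69 in RVO eyes. The kinase genes Mapk8 and Mapk10, which encode JNK proteins, fell in RVO eyes (-0.79 and -1.61). Jun, Bbc3 and Bcl2l11 rose also in RVO against control eyes (log2 fold change 1.28, 1.20 and 0.55), and no gene of the list fell there (median -0.16). The shares of all tested genes in that comparison were 2.70% higher and 0.634% lower. Without RVO replicate 2, 6 of the 18 rose and 9 fell against control eyes, in a fit that called 6257 of 17199 tested genes.

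Among 31 other genes linked to axon regeneration, 29 were tested. Of these, 12 rose and 10 fell in RVO and 12 rose and 9 fell in control against untreated eyes (medians -0.01 and -0.06). The shares of all tested genes were 27.4% higher and 24.6% lower in RVO and 27.2% and 25.2% in control eyes. The largest changes were those of Arg1, which encodes arginase, Cebpd, a transcription factor gene, and Cd44, which encodes a hyaluronan receptor. Their log2 fold changes were 6.28, 5.46 and 3.95 in RVO and 4.25, 4.12 and 2.74 in control eyes. Arg1 and Cebpd are in the study's list of most increased genes from these samples. Arg1 is also made by macrophages, and monocyte and macrophage markers rose in 8 of 10 genes in RVO eyes, with sums of 17.3 to 22.1 CPM in untreated, 55.4 to 75.7 CPM in control and 124 to 150 CPM in RVO samples. Their part in the result was not tested. In RVO against control eyes 6 of 28 genes rose, Arg1, Cebpd, Cd44, Lgals1, Spp1 and Itga7, and 0 fell (median 0.01). The shares of all tested genes in that comparison were 2.70% higher and 0.634% lower. Without RVO replicate 2, 10 rose and 10 fell, in a fit that called 6257 of 17199 tested genes.

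Brakes on axon growth moved in both directions. Of 19 tested genes 2 rose and 8 fell in RVO and 5 rose and 8 fell in control against untreated eyes (medians -0.24 and -0.14), beside 27.4% higher and 24.6% lower in RVO and 27.2% higher and 25.2% lower in control eyes among all tested genes. The ganglion and amacrine cell markers fell in the same samples (medians -1.40 and -1.21 in RVO eyes), and their part in these values was not tested. Socs3, an inhibitor of cytokine signalling that limits regrowth of ganglion cell axons, was among the genes that rose. It went from 3.00 ± 0.209 CPM in untreated to 71.1 ± 20.5 CPM in control and 169 ± 25.2 CPM in RVO eyes (SD, n = 3, log2 fold changes 4.59 and 5.85). It is also in the study's list. Omg, which encodes a myelin glycoprotein and is also expressed by neurons, fell from 48.8 ± 3.82 to 18.2 ± 2.10 and 4.61 ± 3.28 CPM, and Sema3a, a repellent of growth cones, fell with log2 fold changes of -0.62 in control and -1.85 in RVO eyes. Between RVO and control eyes none of the 19 genes passed at 0.01 in edgeR (median -0.20 with all samples). An unadjusted p under 0.05 was reached by 4 higher and 10 lower genes. At an adjusted p under 0.05, 12 passed, 4 of them higher and 8 lower, and 14 passed at 0.01 without RVO replicate 2. Of all tested genes 3.34% passed at 0.01 and 34.6% at 0.05 with all samples, and 6257 of 17199 at 0.01 without that replicate.

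Genes of axon survival and degeneration were examined next. Of 12 genes 3 rose and 1 fell in RVO and 6 rose and 0 fell in control against untreated eyes (medians 0.16 and 0.31), beside 52.1% and 52.4% of all tested genes called in either direction. Nmnat3, which encodes a mitochondrial enzyme of NAD synthesis, Capn2, a calpain gene, and Bax, which encodes an effector of apoptosis, rose in RVO eyes by 1.53, 1.29 and 1.16 on the log2 scale. Nmnat2, whose enzyme keeps axons alive, fell in RVO eyes (-1.04), and its value in control eyes was -0.09. In RVO against control eyes 1 of the 12 rose, Capn2 (0.72), and none fell, beside 2.70% higher and 0.634% lower among all tested genes. Without RVO replicate 2, 3 of the 12 rose and 3 fell, in a fit that called 6257 of 17199 tested genes.

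**Figure D5:**
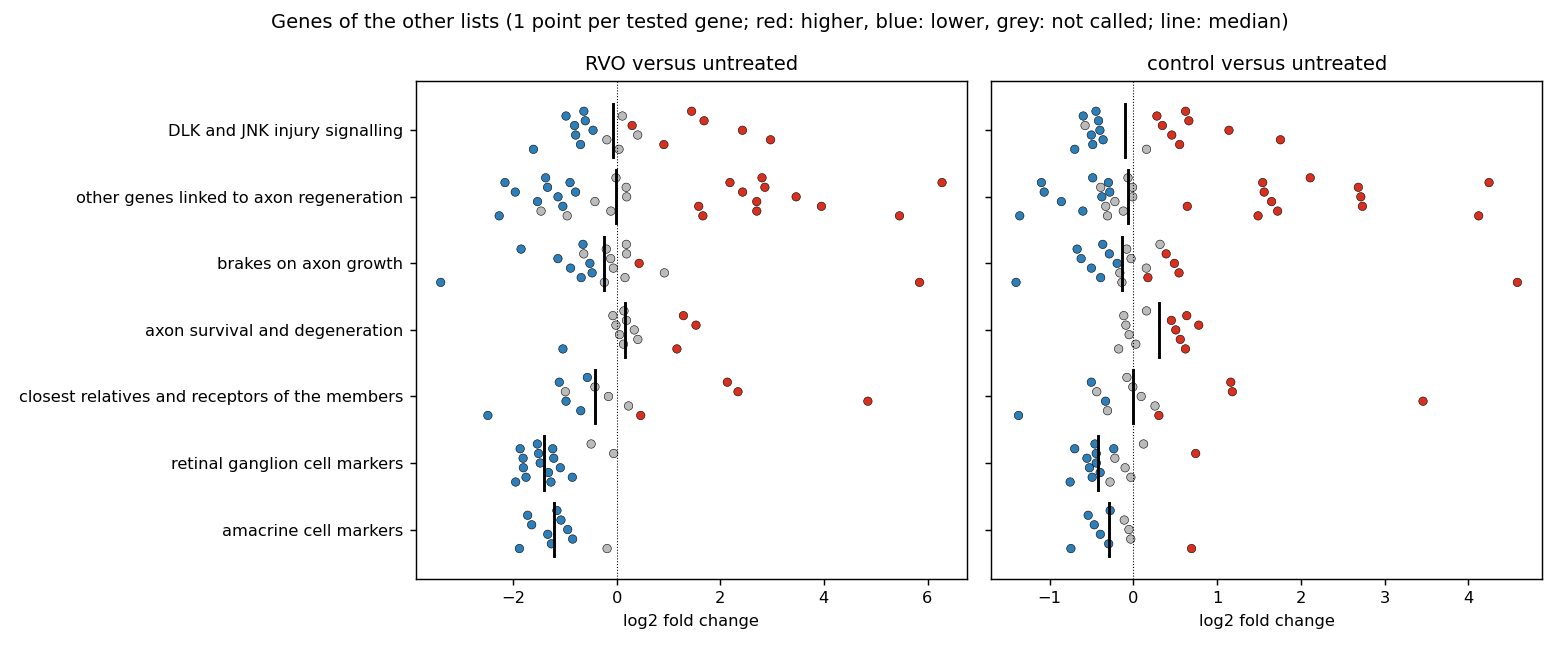
Log2 fold changes (x axis) of the tested genes of 7 lists in RVO against untreated (left) and control against untreated eyes (right). Each point is a gene, red and blue if higher or lower at an adjusted p under 0.01 and grey if not, and black lines are list medians; ganglion cell and amacrine cell markers lie mostly below 0.

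Per length of their exons, the order of the 10 genes changed between groups. In untreated eyes Gap43 was highest, with 26.3 ± 0.733 CPM per kilobase of exon (SD, n = 3), before Stmn2 (20.5 ± 0.63), Gadd45a (17.4 ± 0.893), Map3k12 (14.4 ± 0.636), Klf6 (7.40 ± 0.367) and Atf3 (5.41 ± 0.192). The other genes were below 1, and among the first 6 no neighbours overlapped within their SD. In RVO eyes Atf3 was highest with 61.7 ± 14.9 CPM per kilobase, followed by Gap43 (27.9 ± 3.91), Gadd45a (23.4 ± 1.47), Klf6 (16.2 ± 2.78) and Sprr1a (9.63 ± 3.70). Next were Stmn2 (8.06 ± 2.26), Map3k12 (6.80 ± 0.609), Gal (4.29 ± 1.14), Ecel1 (3.70 ± 0.457) and Sox11 (0.727 ± 0.109). Neighbours whose SDs overlapped were Gap43 and Gadd45a, then Sprr1a, Stmn2 and Map3k12, then Gal and Ecel1.

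The genes with the most similar profile over the 9 samples were found by the Euclidean distance between centred log2 values, with a pseudocount of 0.5 CPM, among 15852 genes tested in all comparisons. Nearest to Atf3 were P2ry2, Phlda3 and Fosb (distance 0.39 to 0.53), and Tubb6 (1.12) and Cdkn1a (1.13) were near Ecel1. Cdkn1a was also near Sprr1a (1.01), after Pf4 (0.99) and before Eif4ebp1 (1.06). Cdkn1a was thus the only gene near more than 1 of the 10, with 4.59 CPM in untreated, 15.5 CPM in control and 70.3 CPM in RVO eyes on average. Gal had Htra3, Fas and Tmem205 as neighbours, Sox11 had Rhoj, Mdk and Txnip, and Klf6 had Npm1, Gfer and Mrps6. Gadd45a was close to Arpc5 (0.09), Tcp1 and Eif1a, and Gap43 to Wipi1, Cobl and Flt1. The genes that fell were nearest to Snrpn, Diras2 and Rgs4 for Stmn2 (0.15 to 0.16) and to Dixdc1, Cacnb2 and Zfp329 for Map3k12 (0.11 to 0.14). These neighbours follow from the same 9 samples and share their differences in depth and composition.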

How the data were processed

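Poly-A RNA of pooled retinas was sequenced with a strand-specific kit as single reads of 50 cycles. The authors used STAR 2.5.2b to map the reads to GRCm38 with annotation Gencode vM11 and counted them with featureCounts (Subread 1.5.1), and the deposited counts are raw counts per gene symbol. The strand setting and the handling of reads that match several genes are not given in the sources used here. Of 48679 listed names 92 belong to spike-in controls, whose counts were 0. Coordinates are from GENCODE vM21 on the same build, to which 46366 names were matched, and columns not used numbered 0. Groups were taken from the labels.

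The counts were analysed with edgeR 4.0.16 in R 4.3.3, pair by pair, with filterByExpr, TMM factors and the quasi-likelihood test. Benjamini-Hochberg adjustment covered all genes tested, and genes under 0.01, the study's threshold, were called. Standard errors were derived from the F statistic. For a group with at most 3 counts in each sample, fold changes are lower bounds. Totals per sample are given with the results, and their lower number in untreated samples limits the precision of genes with few counts. Replicates differed by more than sampling noise (chi-square per degree of freedom 3.15 to 54.1). The procedure was tested on simulated data. Alternatives were DESeq2 1.42.0, other scalings and filters, a joint fit of all samples, a block for the replicate number, another threshold and each sample left out. List counts without RVO replicate 2 were added after seeing the data. The 10 genes and all lists were chosen with earlier results of these data known. From each other list, the 3 genes with the largest called change per comparison were to be named, with its counts and median. Others (Klf7, Galr1, Sprr1b, Ivl, Mapk8, Mapk10, Map3k13, Stmn3, Stmn4, Ece1, Ece2, Sox4, Nmnat2, Lgals1, Spp1, Itga7, Tubb3, Krt5, Aldh3a1) were named after their values were seen. The result of 1 gene of similar profile is not reported here.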

Additional observations from a re-analysis of the deposited data

How the results depend on the processing

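The number of the 10 genes called in RVO against untreated eyes was 9 and stayed at 8 or 9 under every alternative run, including each sample left out. In control against untreated eyes it was 8, and 5 when all 9 samples were in 1 fit, where Gap43, Stmn2 and Klf6 were no longer called (edgeR, Benjamini-Hochberg adjusted p = 0.0557, 0.0491 and 0.0232), and 6 to 8 with 1 sample left out. In RVO against control eyes it was 3, and 8 without a filter on low counts, with DESeq2's test, with all 9 samples in 1 fit and at an adjusted p under 0.05, 2 with DESeq2's size factors, and 0 to 8 with 1 sample left out. The number of all genes called rose as well where it was 8. It was 563 of 16874 in the main fit, 3309 of 29742 without a filter and 4038 of 29742 with DESeq2's test. All samples in 1 fit gave 3853 of 17112, and an adjusted p under 0.05 gave 5836 of 16874. The only change of direction among the 10 genes was that of Gadd45a in control against untreated eyes (0.076 on the log2 scale, adjusted p = 0.389 in edgeR with Benjamini-Hochberg adjustment) with scaling by library size only, which moved the all-gene median by 0.21 for RVO and 0.17 for control against untreated eyes. Where not seen in the construction of an alternative, the cause was not tested.

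With the replicate block, which treats samples of the same number as pairs, 9 and 8 genes were called against untreated eyes and 0 in RVO against control eyes, where Atf3, Ecel1 and Gadd45a had an adjusted p of 0.0314 (edgeR, Benjamini-Hochberg) and 0 of all genes were called, with 7227 at an unadjusted p under 0.05. Deviations of same-numbered RVO and control samples from their group means correlated across genes with r = -0.18, -0.17 and 0.09. For RVO and control samples of different numbers r lay between -0.27 and 0.27. Deviations from the mean of so few samples depend on each other, so these values cannot decide whether equal numbers are pairs. Between 12377572 and 15245869 counts per untreated sample, genes such as Sprr1a, Ecel1 and Gal were at or near the limit of detection there.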
